A study of Mus musculus with 6 samples.

Results

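The genes described here encode the subunits of the proteasome and the factors that assemble it: every symbol in the count table made of Psma, Psmb, Psmc, Psmd, Psme, Psmf or Psmg and a number. The rule found 48 of the 24062 symbols. It left out Psmc3ip and Psme2b, whose symbols carry further characters. Of the 48 genes, 46 passed the filter on low counts and were tested, among 13300 tested genes in all. Psma8, an alpha subunit of male germ cells, had 1 count in every library, and Psmb11, a catalytic subunit of thymic epithelium, had 2 counts in knockout library 3 and 0 in the other 5, so neither was tested.

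RNA-seq was made from brown adipose tissue of male C57BL/6 mice, 12 weeks old, with 3 mice labelled knockout for FAM195A and 3 labelled heterozygous, which serve as controls. No wild-type mouse was analysed here, no treatment or temperature is given, and the labels do not say how the allele was made. FAM195A is named in the study's title as a stress granule protein, a component of the cytoplasmic RNA and protein bodies that form when translation is blocked. Knockout libraries 1, 2 and 3 bear the titles RF2, RF4 and RE9, and heterozygous libraries 1, 2 and 3 the titles RF1, RF3 and RE6. The meaning of the prefixes RF and RE is not given.

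The proteasome is the cell's main machine for destroying proteins tagged with ubiquitin. Its barrel-shaped core stacks outer rings of alpha subunits, which gate the entrance, on inner rings of beta subunits, some of which carry the proteolytic sites. A regulatory particle of ATPases and non-ATPase subunits docks on the core, binds the ubiquitin tag, removes it, and unfolds and threads the protein inside. Under interferon, cells exchange the catalytic subunits Psmb5, Psmb6 and Psmb7 for Psmb8, Psmb9 and Psmb10 and make the activator Psme1 and Psme2, a form called the immunoproteasome that is abundant in leukocytes and favours peptides for antigen presentation. In brown fat the transcription factor Nfe2l1 is known to raise proteasome activity when mice are kept in the cold.

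Promoter windows are shown for catalytic and activator genes contrasted below, with matches to elements of the oxidative stress and interferon responses. The first pair are the 150 bases before the start of Psmb5 and of Psmb6, with a match to TGACNNNGC, the core of the antioxidant response element, in capitals. For Psmb5 the window is chr14:54617996-54618145, minus strand, and the match begins 47 bases before the start. For Psmb6 it is chr11:70525207-70525356, plus strand, with the match 9 bases before the start.
Psmb5: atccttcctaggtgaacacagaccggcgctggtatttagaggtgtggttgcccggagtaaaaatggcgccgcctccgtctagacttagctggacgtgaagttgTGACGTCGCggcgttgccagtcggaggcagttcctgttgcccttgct
Psmb6: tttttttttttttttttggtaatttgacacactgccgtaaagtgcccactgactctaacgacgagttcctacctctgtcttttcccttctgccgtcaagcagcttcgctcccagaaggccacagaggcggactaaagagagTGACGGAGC

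The next is the 150 bases before the start used here for the inducible Psmb8, chr17:34198045-34198194, plus strand. A match to TTCNNNGAA, the gamma-activated site, is in capitals 97 bases before that start. This window lies inside the Psmb8 gene as positioned below, chr17:34197721-34201454. The last is a match to the interferon-stimulated response element, searched as GAAA, any 2 bases and GAAA, and read on the opposite strand of Psme1, chr14:55578503-55578512, from base 10 after the start counting the start as base 1.
Psmb8: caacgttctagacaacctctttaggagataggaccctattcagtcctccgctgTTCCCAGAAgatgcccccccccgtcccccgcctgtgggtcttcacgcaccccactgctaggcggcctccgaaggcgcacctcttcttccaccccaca
Psme1: TTTCGCTTTC

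All sequences are RefSeq's on GRCm38.p6, and windows from 250 bases before to 50 after the start were searched on both strands. The gene positions given below come from another annotation, in which Psmb5, Psmb8 and Psme1 begin before the starts used for these windows. Promoters were found for 40 of the 48 genes, 43 windows in all. TGACNNNGC was in 6 of them (14.0%, against 12.4% of 32851 windows of all genes), those of Psmb5, Psmb6, Psmc6, Psmd9, Psmd12 and Psme4. The interferon-stimulated response element was in 5 (11.6%, against 3.44%), those of Psmb3, Psmd4, Psmd9, Psme1 and Psmg4. TTCNNNGAA was in 3 (6.98%, against 8.3%), those of Psmb8, Psmd2 and Psmg1. CCAAT, a common core promoter element, was in 14 (32.6%, against 37.4%). In the printed windows and the Psme1 match, the marked letters overlapped no match to another of these motifs. The matches did not divide the constitutive from the inducible genes. A match is a run of letters only.

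Each library held 18781401 to 25084627 reads assigned to genes. The targeted gene did not separate the groups: Fam195a had 50.5, 82.0 and 81.3 counts per 1000000 assigned reads (CPM) in the knockout-labelled libraries, against 69.0, 70.5 and 103 CPM in the heterozygous-labelled ones (log2 fold change -0.18, SE 0.241, adjusted p = 0.896 in edgeR). Genotypes are therefore those of the labels throughout, and every direction is that of libraries so labelled. The share of reads assigned to genes was 55.7%, 58.3% and 51.0% in the knockout-labelled libraries and 43.9%, 48.4% and 45.8% in the heterozygous-labelled ones. All 24 markers of skeletal muscle had lower values in each knockout-labelled library than in every heterozygous-labelled one, against 9.89% of all tested genes. The markers summed to 7148, 4156 and 4070 CPM against 11431, 26089 and 34026 CPM. Of the 24, edgeR called 0 (smallest adjusted p = 0.0715) and DESeq2 called 24. With these markers left out of the library sizes, edgeR called 0 proteasome genes, and of all tested genes 7 higher and 63 lower. The part of the markers in the results was otherwise not tested. In bulk tissue, fewer cells of a type and less RNA per cell cannot be told apart.

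Genes of the constitutive core and of the regulatory particle were expressed above the inducible catalytic subunits. Per kilobase of principal transcript, the tested genes of the former had group means of 31.9 to 198 CPM, and the 3 inducible catalytic subunits 6.02 to 13.5 CPM. The activator genes Psme1 and Psme2 of the immunoproteasome lay within the constitutive range, with group means of 69.8 to 88.2 CPM per kb. Psma6, a gate-forming alpha subunit, had the highest level, 198 ± 22.3 CPM per kb in knockout-labelled and 188 ± 19.4 in heterozygous-labelled libraries (SD, n = 3 each). Next to it came Psmd8, a scaffold subunit of the regulatory particle, at 190 ± 10.8 and 161 ± 11.3 CPM per kb, and the beta subunit Psmb2 at 184 ± 18.9 and 162 ± 9.80. Psmb5 was the lowest of the constitutive core genes, at 49.4 ± 6.83 CPM per kb in knockout-labelled and 33.0 ± 3.90 in heterozygous-labelled ones. Neighbours in this order overlapped within their SDs, also Psmb5 and the next above it, Psma5, at 50.1 ± 22.4 and 43.5 ± 9.74 CPM per kb.

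**Figure D1:**
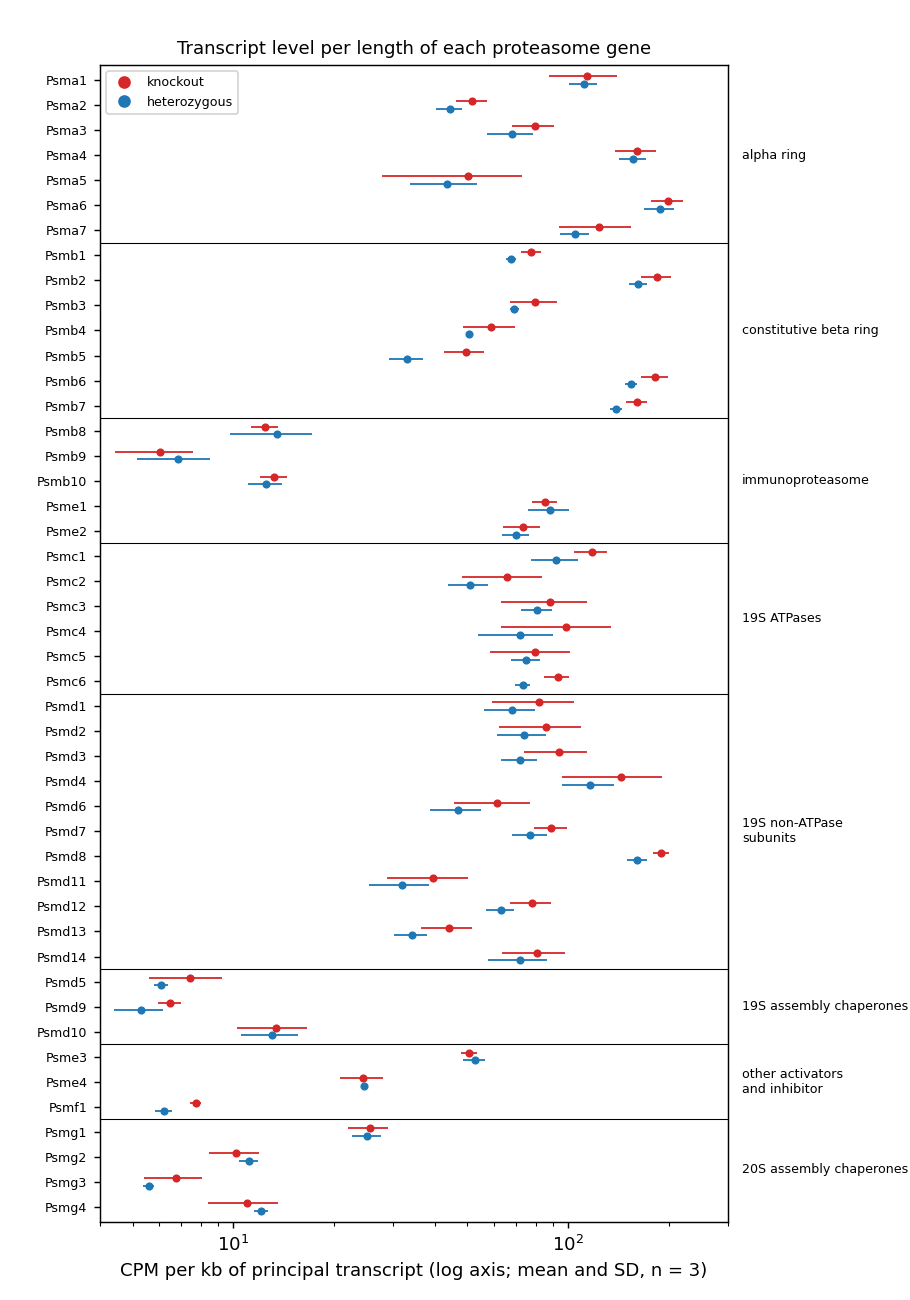
Level of each tested proteasome gene in CPM per kilobase of its principal transcript (log axis), as mean and SD of 3 knockout-labelled (red) and 3 heterozygous-labelled (blue) libraries, grouped by role. Psmb8, Psmb9 and Psmb10 sit below the constitutive core and regulatory particle genes in both groups, and the assembly factors range from 5.29 for Psmd9 to 25.5 for Psmg1.

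The assembly factors had group means of 5.29 to 25.5 CPM per kb. The highest was Psmg1, a chaperone of the alpha ring, at 25.5 ± 3.47 CPM per kb in knockout-labelled and 25.1 ± 2.52 in heterozygous-labelled libraries, next to Psmd11, the lowest regulatory particle gene, at 39.4 ± 10.7 and 31.9 ± 6.45. Their SDs overlapped in both groups. Psmd10 followed at 13.4 ± 3.14 and 13.0 ± 2.52 CPM per kb. Psmg3, which with Psmg4 chaperones the alpha ring, had 6.74 ± 1.32 CPM per kb in knockout-labelled libraries, against 5.59 ± 0.212 in heterozygous-labelled ones. Psmd9, a chaperone of the ATPase ring, had 6.46 ± 0.518 CPM per kb against 5.29 ± 0.877. Psmf1, an inhibitor that binds the core, had 7.71 ± 0.292 CPM per kb against 6.22 ± 0.364. The means of Psmg3, Psmd9 and Psmf1 were below those of every tested subunit of the constitutive core and of the regulatory particle.

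Between the genotypes, no proteasome gene passed the test: 0 of 46 were higher and 0 lower in knockout-labelled libraries at an adjusted p of 0.05 (edgeR's quasi-likelihood test, Benjamini-Hochberg over all tested genes). Of all tested genes 0.586% were called, 0.0526% higher and 0.534% lower. At an unadjusted p under 0.05 there were 3 of 46, Psmb5, Psmc6 and Psmf1, against a background of 12.1%. DESeq2 called 1, Psmb5, where it called 5.8% of all tested genes, and limma-voom called 0, where it called 1.46%. The values of most members nonetheless lay a little higher in the knockout-labelled libraries: 39 of 46 had a log2 fold change above 0, against 53.1% of all tested genes, and their median was 0.21, against 0.02 for all tested genes. The median ran from 0.12 without knockout library 2 to 0.30 without knockout library 3. The summed level of the 48 genes was 5707, 5860 and 4417 CPM in knockout-labelled libraries, against 4853, 4819 and 4161 CPM in heterozygous-labelled ones, so the groups overlapped through knockout library 3.

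Of the 46 intervals of the log2 fold change (95%), 43 held 0, and 2, those of Psma5 and Psmc4, reached 1 or more in size. All 3 knockout-labelled values lay above all 3 heterozygous-labelled values for 9 of the 46 (19.6%, against 8.11% of all tested genes): Psmb1, Psmb4, Psmb5, Psmb6, Psmb7, Psmc6, Psmd8, Psmf1 and Psmg3. The opposite order was found for 0 of 46, against 9.89%. Within the 4 RF libraries alone 41 members had a log2 fold change above 0, with a median of 0.24. None was called, and 15 of 46 had an unadjusted p under 0.05, against 14.3% of all genes tested there. With the prefix as a covariate over all 6 libraries, 0 of 46 were called, against 2.34%, and 11 had an unadjusted p under 0.05, against 18.2%. The smallest adjusted p there were 0.0726 for Psmb5 and 0.0945 for Psmd13. In the RE pair, 1 library per genotype and no test, 26 members had a log2 ratio above 0, with a median of 0.04.

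**Figure D2:**
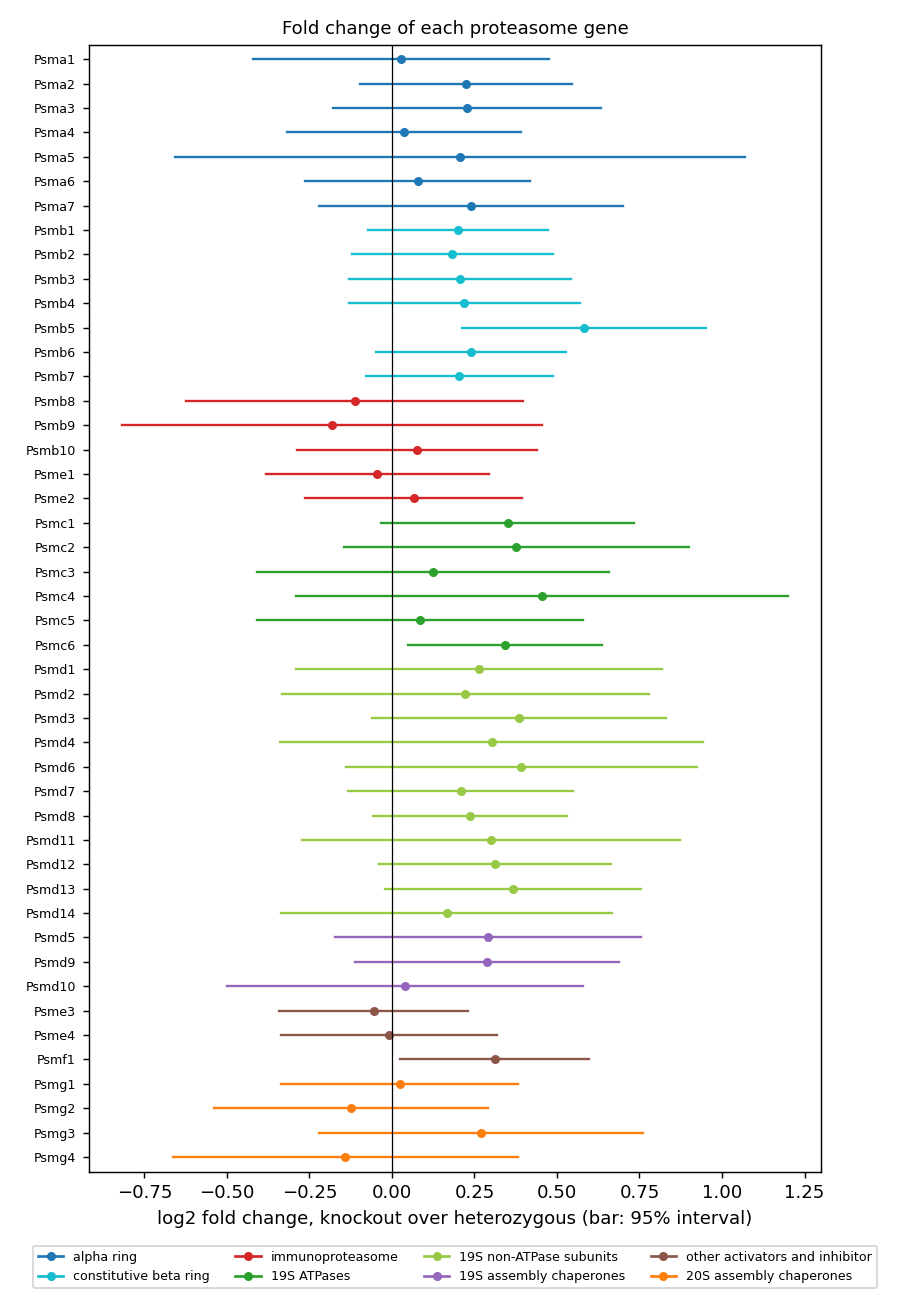
Log2 fold change, knockout-labelled over heterozygous-labelled, of each tested proteasome gene with its 95% interval, grouped by role. Psmb5 stands highest at 0.58. The points of the constitutive core and regulatory particle lie to the right of 0, and those of the immunoproteasome genes on both sides of it. Of the 46 intervals, 43 hold 0.

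The alpha ring, whose subunits gate the core, had all 7 tested members at log2 fold changes above 0, from 0.03 for Psma1 to 0.24 for Psma7, a median of 0.21 and 0 of 7 called. Psma1 had 152, 157 and 101 CPM in knockout-labelled libraries, against 142, 140 and 119 CPM in heterozygous-labelled ones (SE 0.192, adjusted p = 0.982 in edgeR). Psma7 had 122, 135 and 82.7 CPM against 101, 102 and 84.6 CPM (SE 0.197, adjusted p = 0.777 in edgeR). In both genes knockout library 3 had the lowest of the 6 values. The median of the ring was 0.22 in the RF libraries and -0.03 in the RE pair.

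In the constitutive beta ring, the inner rings of the core, log2 fold changes ran from 0.18 to 0.58, with a median of 0.21. None of the 7 was called. In 5 of the 7 every knockout-labelled value was above every heterozygous-labelled one, against 8.11% of all tested genes. The median was 0.25 in the RF libraries and 0.19 in the RE pair. The smallest change was that of Psmb2, a structural subunit, at 150, 176 and 147 CPM in knockout-labelled libraries against 148, 138 and 131 CPM in heterozygous-labelled ones (log2 fold change 0.18, SE 0.130, adjusted p = 0.719 in edgeR), with overlapping groups.

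Psmb5, the subunit that cuts after large hydrophobic residues and the main target of bortezomib, showed the widest difference. The gene lies at chr14:54614119-54618022 (GRCm38), minus strand, and its promoter is printed above. It had 46.6, 49.1 and 37.4 CPM in knockout-labelled libraries, against 26.0, 33.0 and 30.0 CPM in heterozygous-labelled ones. Every knockout-labelled value was above every heterozygous-labelled one. The means were 44.4 ± 6.14 and 29.6 ± 3.51 CPM (SD, n = 3 each) and the log2 fold change was 0.58 (SE 0.158, 95% interval 0.21 to 0.95), but it did not pass the adjusted threshold in edgeR (adjusted p = 0.146). Over the alternatives of this test the adjusted p ran from 0.0429 in DESeq2 to 0.38 in edgeR without heterozygous library 1, and it was 0.0926 in limma-voom. The log2 fold change was 0.70 in the RF libraries and 0.31 in the RE pair.

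The other constitutive catalytic subunits differed less. Psmb6, which cuts after acidic residues, had 135, 160 and 140 CPM in knockout-labelled libraries, against 119, 129 and 121 CPM in heterozygous-labelled ones (log2 fold change 0.24, SE 0.123, adjusted p = 0.544 in edgeR). Psmb7, which cuts after basic residues, had 177, 202 and 179 CPM against 169, 159 and 156 CPM (log2 fold change 0.20, SE 0.121, adjusted p = 0.630 in edgeR). In both genes the groups did not overlap.

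The immunoproteasome genes did not share the direction of the constitutive core: 2 of 5 had log2 fold changes above 0 and 3 below. Their median was -0.04 (-0.14 to 0.08 with 1 library left out), and 0 of 5 were called by any of the 3 tools. The groups overlapped in all 5, as in all 7 tested alpha ring genes and all but 2 of the 17 regulatory particle subunits. Of all tested genes, 8.11% had every knockout-labelled value above and 9.89% every one below. Psmb8, the inducible counterpart of Psmb5, at chr17:34197721-34201454, had 18.5, 22.3 and 20.1 CPM in knockout-labelled libraries, against 27.4, 15.5 and 23.0 CPM in heterozygous-labelled ones (log2 fold change -0.11, SE 0.219, adjusted p = 0.936 in edgeR). Psmb9, the counterpart of Psmb6 and its neighbour at chr17:34181987-34187764, had 8.74, 9.91 and 5.77 CPM against 11.6, 7.06 and 9.04 CPM (log2 fold change -0.18, SE 0.272, adjusted p = 0.910 in edgeR). In both genes heterozygous library 1 had the highest value, and in Psmb8 heterozygous library 2 had the lowest.

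Psmb10, the counterpart of Psmb7, had 15.8, 19 and 17.2 CPM in knockout-labelled libraries, against 17.3, 14.2 and 17.8 CPM in heterozygous-labelled ones (log2 fold change 0.08, SE 0.156, adjusted p = 0.941 in edgeR). The activator genes Psme1 and Psme2 lie close together on chromosome 14, at chr14:55578123-55581529 and chr14:55587441-55591113. Psme1 had 87.5, 104 and 94.0 CPM against 98.8, 84.1 and 111 CPM (log2 fold change -0.04, SE 0.144, adjusted p = 0.962 in edgeR), and Psme2 had 64.0, 80.4 and 66.6 CPM against 71.6, 60.0 and 69.8 CPM (log2 fold change 0.07, SE 0.141, adjusted p = 0.942 in edgeR). Heterozygous library 2 was the lowest of the 6 in Psmb8, Psmb10, Psme1 and Psme2. The table also lists Psme2b, a near copy of Psme2, so the Psme2 count is uncertain.

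Markers of leukocytes, cells rich in the immunoproteasome, summed to 141, 108 and 163 CPM in knockout-labelled libraries, against 137, 72.1 and 176 CPM in heterozygous-labelled ones, with heterozygous library 2 the lowest. Of the 11 tested, 0 were called, and their part in the immunoproteasome values was not tested. Nor were any of 16 genes of antigen presentation and its regulators called, with a median log2 fold change of -0.03 and 1 at an unadjusted p under 0.05. That gene was Gbp2, an interferon-induced GTPase, at 54.1, 46.0 and 45.3 CPM in knockout-labelled libraries against 40.4, 33.5 and 39.3 CPM in heterozygous-labelled ones (log2 fold change 0.36, adjusted p = 0.341 in edgeR). Tapbp, which loads peptides on MHC class I, had a log2 fold change of 0.14, H2-D1, a class I heavy chain, -0.25, and Ciita, the regulator of MHC class II genes, -0.44, with adjusted p of 0.800, 0.847 and 0.835 in edgeR.

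The balance of inducible to constitutive catalytic subunits was compared within each library. Per length, Psmb8 amounted to 21.9%, 25.1% and 29.6% of Psmb5 in knockout-labelled libraries, against 58.2%, 25.9% and 42.3% in heterozygous-labelled ones. On the log2 scale with 0.5 CPM added to each gene, not per length, the ratio averaged -1.10 ± 0.214 against -0.46 ± 0.574 (SD, n = 3 each), a difference of -0.65 (exact permutation test over libraries, two-sided p = 0.2). The groups overlapped, since knockout library 3 lay above heterozygous library 2.

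Psmb9 amounted to 3.82%, 3.65% and 2.44% of Psmb6 per length in knockout-labelled libraries, against 5.75%, 3.24% and 4.42% in heterozygous-labelled ones (difference of the log2 ratios -0.41, exact permutation p = 0.3). Psmb10 amounted to 7.91%, 8.32% and 8.49% of Psmb7, against 9.09%, 7.91% and 10.1% (difference -0.13, exact permutation p = 0.3). Adjusted over the 3 pairs, each p was 0.3, and 3 libraries against 3 cannot go below 0.1. That design could not have passed 0.05, so whether the balances differ is not settled here. All 3 differences were below 0, in the RF libraries and in the RE pair as well. These are the same 6 libraries divided, and the differences largely restate the fold changes given above, so the shared sign is no further support. For Psmb8 over Psmb5 those fold changes were -0.11 for Psmb8 and 0.58 for Psmb5.

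**Figure D3:**
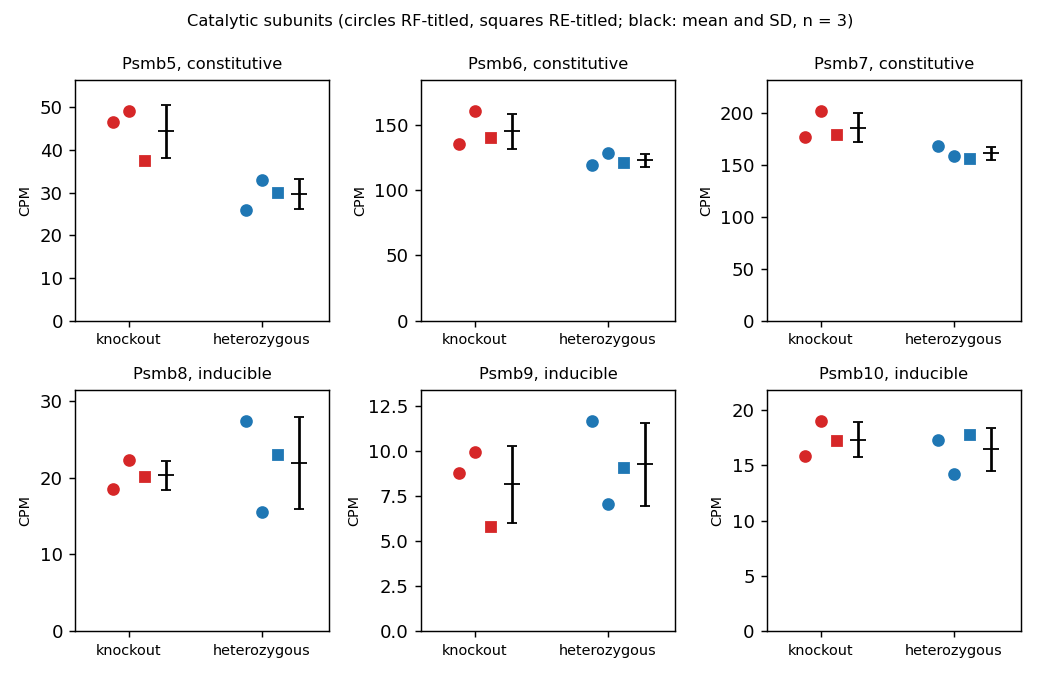
CPM of the 3 constitutive catalytic subunits and their inducible counterparts in each library, knockout-labelled left of heterozygous-labelled, with the mean and SD in black. Psmb5, Psmb6 and Psmb7 do not overlap between the groups, while Psmb8, Psmb9 and Psmb10 do.

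The regulatory particle had log2 fold changes above 0 in all 17 subunits, 0 of which were called, and their median was 0.30. Its 6 ATPases, which unfold the substrate, had a median of 0.35, from 0.09 for Psmc5 to 0.46 for Psmc4. Psmc4, at chr7:28041707-28050101, had 170, 173 and 82.7 CPM in knockout-labelled libraries, against 114, 123 and 74.1 CPM in heterozygous-labelled ones (SE 0.317, 95% interval -0.29 to 1.2, adjusted p = 0.711 in edgeR), where the lowest value of each group was its RE library. Psmc5 had 112, 129 and 73.7 CPM against 100, 108 and 88.4 CPM (SE 0.211, adjusted p = 0.953 in edgeR).

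Psmc6 was the ATPase with the smallest p. It had 225, 208 and 190 CPM in knockout-labelled libraries, against 167, 170 and 154 CPM in heterozygous-labelled ones, with no overlap (208 ± 17.8 and 164 ± 8.21 CPM, SD, n = 3 each). Its log2 fold change was 0.34 (SE 0.126, adjusted p = 0.311 in edgeR), close to its 0.36 in the RF libraries and 0.30 in the RE pair.

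The 11 non-ATPase subunits had a median log2 fold change of 0.30, from 0.17 for Psmd14 to 0.39 for Psmd6. Psmd14, the metalloprotease that removes the ubiquitin chain, had 146, 132 and 94.6 CPM in knockout-labelled libraries, against 128, 119 and 85.9 CPM in heterozygous-labelled ones (SE 0.215, adjusted p = 0.891 in edgeR). Psmd6, a scaffold subunit of the lid, had 99.9, 95.3 and 59.9 CPM against 69.1, 73.3 and 52.0 CPM (SE 0.227, adjusted p = 0.623 in edgeR). In each group of either gene the RE library was the lowest. Psmd8 was the 1 subunit of the 11 with no overlap (9.09%, against 8.11% of all tested genes with knockout-labelled values above). It had 278, 310 and 287 CPM against 248, 265 and 230 CPM (log2 fold change 0.24, adjusted p = 0.571 in edgeR).

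**Figure D4:**
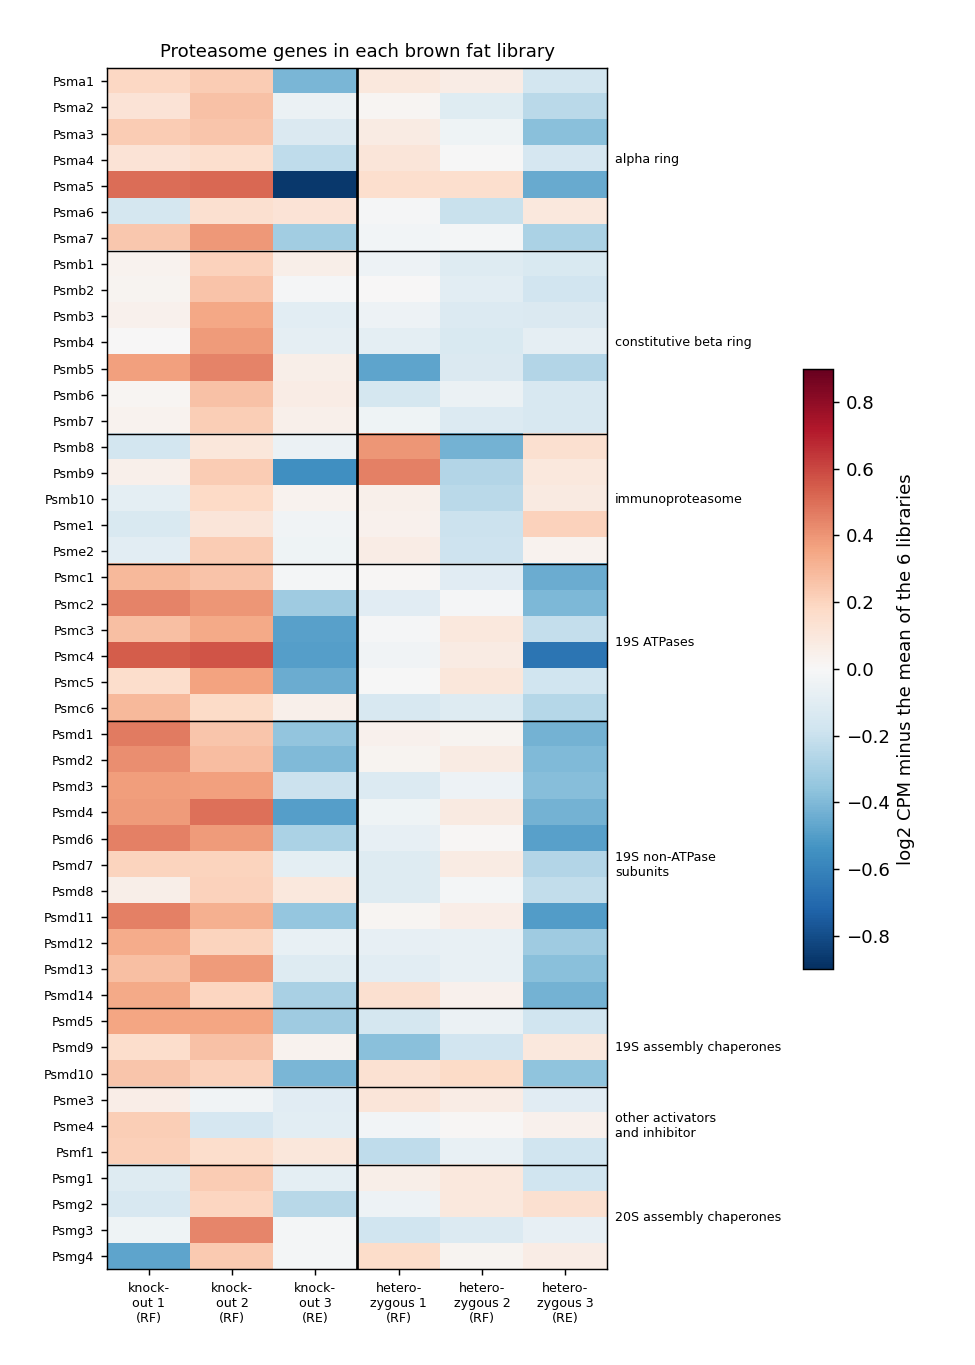
Log2 CPM of each tested proteasome gene (down the page, by role) in each library (across, knockout-labelled left of heterozygous-labelled), less the gene's mean over the 6 libraries. Knockout libraries 1 and 2 are high across the regulatory particle. The RE libraries, knockout 3 and heterozygous 3, both lie below all 4 RF libraries in 12 of its 17 subunits.

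The assembly chaperones of the regulatory particle had log2 fold changes of 0.04 for Psmd10, also known as gankyrin, and 0.29 each for Psmd5 and Psmd9, with a median of 0.29 and 0 of 3 called. Psmd10 had 22.0, 21.5 and 14.0 CPM in knockout-labelled libraries, against 20.5, 21.0 and 14.5 CPM in heterozygous-labelled ones (SE 0.231, adjusted p = 0.979 in edgeR). Psmd5 had 37.5, 37.3 and 23.4 CPM against 26.2, 28.2 and 25.8 CPM (SE 0.198, adjusted p = 0.701 in edgeR), with knockout library 3 the lowest of all 6.

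The 4 chaperones of the core had a median of -0.05, from -0.14 for Psmg4 to 0.27 for Psmg3, and 0 of 4 called. Psmg4 had 4.57, 7.45 and 6.28 CPM in knockout-labelled libraries, against 7.09, 6.45 and 6.65 CPM in heterozygous-labelled ones (SE 0.223, adjusted p = 0.917 in edgeR). Psmg3 had 5.24, 7.30 and 5.31 CPM against 4.75, 4.94 and 5.12 CPM (SE 0.210, adjusted p = 0.754 in edgeR). The groups of Psmg3 did not overlap, but their nearest values, 5.24 and 5.12 CPM, lay close together.

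Of the remaining activators and the inhibitor, Psmf1 alone had a log2 fold change above 0. Psmf1, also called PI31, had 30.5, 29.3 and 28.3 CPM in knockout-labelled libraries, against 22.5, 25.2 and 23.3 CPM in heterozygous-labelled ones, with no overlap (log2 fold change 0.31, SE 0.122, 95% interval 0.03 to 0.60, adjusted p = 0.356 in edgeR). Psme3, the nuclear activator PA28 gamma, had 143, 134 and 128 CPM against 148, 144 and 128 CPM (log2 fold change -0.06, SE 0.122, adjusted p = 0.946 in edgeR). For Psme4, the activator PA200, the log2 fold change was -0.01 (adjusted p = 0.991 in edgeR).

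Genes that work with the proteasome gave the same absence of calls. Of 16 partners and controllers of the proteasome, 0 were called, with 2 at an unadjusted p under 0.05 and a median log2 fold change of 0.12. Those were Usp14, a deubiquitinase bound to the regulatory particle, at 161, 141 and 113 CPM in knockout-labelled libraries against 106, 114 and 91.3 CPM in heterozygous-labelled ones (log2 fold change 0.42, adjusted p = 0.362 in edgeR), and Pomp. Pomp, the maturation factor that brings beta subunits onto the alpha ring, had 81.1, 87.2 and 68.8 CPM against 68.5, 61.7 and 56.5 CPM, with no overlap (log2 fold change 0.34, SE 0.141, adjusted p = 0.379 in edgeR). The log2 fold change was 0.36 for Txnl1, a thioredoxin of the regulatory particle (adjusted p = 0.540 in edgeR).

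Nfe2l1, the transcription factor of proteasome genes, had 831, 780 and 825 CPM in knockout-labelled libraries, against 700, 727 and 668 CPM in heterozygous-labelled ones. The groups did not overlap, but the log2 fold change of 0.22 did not pass the test (SE 0.131, adjusted p = 0.644 in edgeR). Among 19 genes of ubiquitin supply and delivery 0 were called and 0 had an unadjusted p under 0.05, with a median of 0.11. The conjugating enzyme Ube2k had a log2 fold change of 0.18, the segregase Vcp 0.20 and the polyubiquitin gene Ubb 0.39 (adjusted p of 0.689, 0.727 and 0.739 in edgeR). Neither DESeq2 nor limma-voom called a gene of these lists.

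More proteasome genes passed the test between title prefixes than between genotypes. This contrast was added after the data were seen: RE libraries, knockout 3 and heterozygous 3, over the 4 RF libraries, with genotype in the model. In edgeR 10 of 46 proteasome genes were lower in RE libraries and 0 higher at an adjusted p of 0.05, against 4.32% and 5.02% of all tested genes. Of the 10, 8 belonged to the 17 subunits of the regulatory particle, and none to the constitutive beta ring or the immunoproteasome. The calls rest on few libraries: the count was 0 without knockout library 1, 2 without heterozygous library 2 and 4 without knockout library 2. Without knockout library 3 or heterozygous library 3 only 1 RE library remains, so no count is given. DESeq2 called 18 lower. The shares of all tested genes called in these other fits are not reported here, so their counts have no background beside them.

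Psma5, an alpha subunit at chr3:108256926-108279974, was the widest, at 30.0 and 40.0 CPM in the RE libraries (knockout 3 and heterozygous 3) against 60.8 to 78.6 CPM in the RF ones (log2 fold change -0.98, adjusted p = 0.0212 in edgeR). Psmc4 had 82.7 and 74.1 CPM against 114 to 173 CPM (log2 fold change -0.86, adjusted p = 0.0125 in edgeR). Psmd4, a ubiquitin receptor, had 119 and 124 CPM against 163 to 236 CPM (log2 fold change -0.69, adjusted p = 0.0297 in edgeR). None of these RE values reached the RF range. The other 7 were Psmc2, Psmd1, Psmd2, Psmd6, Psmd10, Psmd11 and Psmd14, at log2 fold changes of -0.54 to -0.64.

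By role, the median log2 fold change of RE over RF libraries was -0.52 for the regulatory particle, -0.38 for the alpha ring, -0.13 for the constitutive beta ring and 0.04 for the immunoproteasome, against 0.01 for all tested genes. For 40 of 46 proteasome genes the log2 fold change was below 0, against 49.2% of all tested genes. Both RE values lay below all 4 RF values for 20 of 46 proteasome genes, 12 of them in the regulatory particle, against 17.8% of all tested genes. Psmb5 was not among the genes called (log2 fold change -0.16, adjusted p = 0.512 in edgeR).

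**Figure D5:**
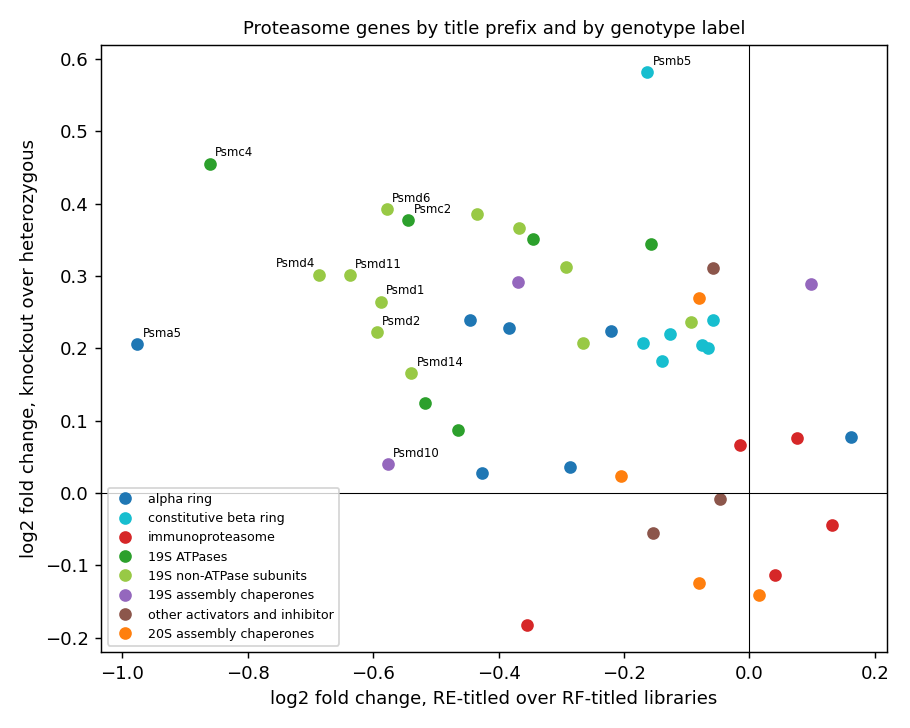
Log2 fold change of each tested proteasome gene between the title prefixes (RE over RF, horizontal) and between the genotype labels (knockout over heterozygous, vertical), coloured by role. The 10 genes called lower in RE libraries and Psmb5 are named, and most of the 10 are regulatory particle subunits to the left of -0.5 on the horizontal axis.

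Among the 16 partners, 3 were called lower and 1 higher in RE libraries, against 4.32% and 5.02% of all tested genes. Those lower were Adrm1, a ubiquitin receptor of the regulatory particle, at -0.90, Zfand2a, a stress-induced proteasome adaptor, at -0.89, and Txnl1 at -0.45 (adjusted p of 0.0105, 0.0342 and 0.0341 in edgeR). Nfe2l2, the transcription factor of the oxidative stress response, was higher, with 220 and 174 CPM in RE libraries against 84.6 to 123 CPM in RF ones (log2 fold change 0.99, adjusted p = 0.0184 in edgeR), while the log2 fold change of Nfe2l1 was -0.03 (adjusted p = 0.905 in edgeR). Nploc4, a cofactor of Vcp in the delivery of tagged proteins, was lower, at -0.73 (adjusted p = 0.0151 in edgeR). These genes are named because they passed this added test.

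Of the 14 brown adipocyte markers, 3 were called lower and 1 higher in RE libraries, against 4.32% and 5.02% of all tested genes. Of the 14, 6 were below 0, and the median log2 fold change was 0.10. Among those called, Ucp1, the uncoupling protein of brown fat, had a log2 fold change of -1.18 in RE over RF libraries, Ppargc1a, a coactivator of mitochondrial genes, -2.21, and Dio2, which activates thyroid hormone, -2.11 (adjusted p of 0.0291, 0.00272 and 0.0113 in edgeR). Zic1, a brown fat transcription factor, was higher, at 1.05 (adjusted p = 0.0155 in edgeR). Of the 11 tested leukocyte markers 1 was called, the macrophage receptor Csf1r, higher at 0.84 (adjusted p = 0.0458 in edgeR), against 5.02% of all tested genes called higher. Of the 11, 5 were below 0 and the median was 0.20. Between the genotypes, Elovl3, a fatty acid elongase, was the 1 gene called of the 14 brown adipocyte markers, at 182, 161 and 216 CPM in knockout-labelled libraries against 86.0, 98.9 and 88.3 CPM in heterozygous-labelled ones (log2 fold change 1.03, SE 0.150, adjusted p = 0.0418 in edgeR), a call lost on leaving out each of knockout library 1, knockout library 2, heterozygous library 2 and heterozygous library 3 in turn (adjusted p 0.107 to 0.171). Each prefix holds both genotypes, so the genotype values within the RF libraries and within the RE pair, given above, were taken within a prefix. The part of these markers in the proteasome values was not tested.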

How the data were processed

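RNA was extracted from pulverised frozen brown fat of separate mice, per the labels' protocols. The authors deposited raw read counts for each gene symbol, with a column per library. As tools the submitters' processing notes list edgeR, HTSeq, SAMtools 1.9, STAR 2.7.2b, Bowtie2 2.3.4.3 and Trim Galore, and as build mm10, with no roles. Which annotation and strand setting were counted, and how reads with several matches were treated, was not given in the sources used here. Reads of a gene and of one overlapping it on the other strand may thus be mixed, and proteasome genes with pseudogene copies may lose reads to them. Libraries were grouped by the genotype label. All 15 pairs of libraries differed beyond sampling noise (chi-square over its degrees of freedom 41.2 to 326).

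Lines of the table that name no gene held 41.7% to 56.1% of each column and were left out of library sizes. Reads with several alignments were 17.6% to 19.8% of the column in knockout-labelled and 21.8% to 23.8% in heterozygous-labelled libraries. Genotype was tested with edgeR 4.0.16 (R 4.3.3) by its robust quasi-likelihood F test after TMM scaling and filterByExpr at a minimum count of 10 and total of 15. P-values were adjusted by Benjamini-Hochberg over 13300 genes, with a threshold of 0.05. DESeq2 1.42.0 and limma 3.58.1 (voom with quality weights) were alternatives. CPM used TMM-scaled library sizes, and levels per kb the length of the principal transcript in GENCODE M21 on GRCm38, the source of gene positions too. The biological coefficient of variation was 24.7%. On simulated counts of 13148 genes for this comparison, 34.7% of 98 genes with a log2 change of 1 were recovered. With a change of 2, 85.1% of 94 genes were recovered, and 10 of 124 calls were false. The simulated counts held no difference between title prefixes, unlike the data.

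The members and gene lists were chosen with earlier results of these data known, and counts over them are descriptions. The text names, in each role, the members with the smallest and the largest fold change, the immunoproteasome genes and their counterparts, the called genes and up to 4 genes of smallest p in each other list, and Nfe2l1, Pomp and Fam195a. Others were chosen after their values were seen, and some genes of the ubiquitin list are not reported here. The list symbols Paaf1 and Adgre1 were not found in the table. P-values measure the spread between these mice.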

Additional observations from a re-analysis of the deposited data

How the results depend on the processing

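No paired analysis was made because the titles name no pairs of mice. The titles RF2, RF4 and RE9 mark knockout-labelled libraries and RF1, RF3 and RE6 heterozygous-labelled ones. The title prefix, which both groups share, was used as a covariate in an alternative fit. The count of proteasome genes called between genotypes was 0 in edgeR under every scaling, filter and left-out library tried, and 1 higher in DESeq2 (Psmb5). With 1 library left out, the median log2 fold change was 0.12 to 0.30 for all members, 0.096 to 0.27 for the constitutive core, 0.19 to 0.43 for the regulatory particle, 0.18 to 0.34 for its chaperones, -0.14 to 0.080 for the immunoproteasome, -0.097 to 0.065 for the other activators and inhibitor and -0.18 to 0.058 for the core chaperones. The low ends of the first 2 came without knockout library 2, and that of the regulatory particle without heterozygous library 3. The ratio differences were -0.95 to -0.38 for Psmb8 over Psmb5, -0.62 to -0.22 for Psmb9 over Psmb6 and -0.21 to -0.046 for Psmb10 over Psmb7. Over all tested genes, 7 were called higher and 71 lower. With no filter on low counts 13 were higher. With the title prefix as a covariate 67 were higher and 244 lower, in RF libraries alone 19 and 113, in DESeq2 127 and 644, in limma-voom 29 and 165, and with 1 library left out 0 to 19 and 0 to 381. Muscle markers called lower numbered 0, but 24 in DESeq2 and 0 to 24 with 1 library left out (24 without heterozygous library 1). Brown adipocyte markers called higher were 0 to 1 with 1 library left out, and 1 was called lower with the prefix as a covariate. The cause of these differences was not tested.

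Proteasome genes called lower in RE libraries were 10, against 18 in DESeq2. They were 0 without knockout library 1, 2 without heterozygous library 2 and 4 without knockout library 2. For the regulatory particle they were 8, against 13 in DESeq2 and 0, 1 and 4 without those libraries. Its median of RE over RF was -0.70 to -0.36 with 1 library left out. The shares of all tested genes called in these other fits are not reported here. Fold changes of 13 proteasome genes and of Fam195a changed sign with 1 library left out: Psma1 -0.082 to 0.20, Psma4 -0.030 to 0.14, Psmb8 -0.31 to 0.080, Psmb9 -0.35 to 0.020, Psmb10 -0.017 to 0.14, Psmc3 -0.020 to 0.34, Psmc5 -0.087 to 0.28, Psmd10 -0.11 to 0.21, Psme1 -0.14 to 0.057, Psme2 -0.038 to 0.13, Psme4 -0.13 to 0.065, Psmg1 -0.092 to 0.086, Psmg4 -0.31 to 0.030 and Fam195a -0.29 to 0.033. Psma1 was -0.013 with library size as the only scaling. Psme1 was 0.062 in RF libraries alone and 0.011 in limma-voom, and H2-D1 was 0.12 in RF libraries alone. The 95% intervals of all tested proteasome genes but Psma5 and Psmc4 exclude a log2 change of 1 or more. Changes of 1 or less can go undetected with 3 libraries per group: in the simulation 34.7% of genes with a change of 1 were recovered. The changed genes were drawn at random from all tested genes, so that share is not a rate for the proteasome genes.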
